A study of Mus musculus with 8 samples.

Results

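The 10 genes described here make, conjugate, move and regulate bile acids in the liver: Cyp7a1, Cyp8b1, Cyp27a1, Cyp7b1 and Baat for synthesis and conjugation, Slc10a1 and Abcb11 for transport, and Nr1h4, Nr0b2 and Fgfr4 for control. The genes were chosen with earlier results of these data known. They were taken by gene name, through every non-control probe whose accession maps to one of these symbols. That gave 12 probes out of 55681, and all 10 genes were among the 14066 genes tested. Each gene had 1 probe except Slc10a1 and Fgfr4, which had 2 each.

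Liver RNA from 8 mice was hybridized to Agilent single-colour arrays, 1 mouse to an array. The groups were 4 Rap1 -/- mice and 4 wild-type mice, all aged 10 weeks, an age chosen by the study to come before the onset of obesity, and all on the C57BL6/129SV (90%:10%) background. The Rap1 -/- mice came from Rap1 flox/flox animals in which a cre transgene under the EIIa promoter had removed the gene in the whole body, and the cre allele was then bred out of the colony. RAP1, encoded by Terf2ip, is a telomeric protein that also binds along chromosome arms, and the comparison asks which liver transcripts differ in its absence. Sex and feeding state are missing from the labels, and the study describes its young mice as females and its livers as fed or fasted.

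Bile acids are made from cholesterol in hepatocytes, by a classic route that CYP7A1 opens and an alternative route that CYP27A1 opens and CYP7B1 continues. They are joined to taurine in mice, pumped into bile by BSEP, the product of Abcb11, and brought back from portal blood by NTCP, the product of Slc10a1. Bile acids bind the nuclear receptor FXR (Nr1h4), which induces the repressor SHP (Nr0b2) in liver and an intestinal fibroblast growth factor that signals to hepatocytes through FGFR4, and both arms are known to lower transcription of Cyp7a1.

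None of the 10 genes passed the test between genotypes (limma, Benjamini-Hochberg adjustment over 14066 genes, adjusted p from 0.783 to 0.991). Across all genes 2 passed, Chst4 and Zfhx3, both lower in Rap1-deficient liver, which is 0.0142% of those tested. At the level of probes 0 of the 12 passed, where 0.00644% of 31068 tested probes did. At an unadjusted p under 0.05 the members again gave 0 of 10, against a background of 6.36%, and in 0 of 10 did the 4 knockout values lie apart from the 4 wild-type values, against a background of 4.31%. With 4 mice a group, the exact permutation test cannot give a p below 0.0286, and its smallest value over the members was 0.114.

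Levels are given throughout as log2 of the processed signal relative to the 75th percentile of the same array, so that 1 unit is a doubling, and differences are knockout minus wild type. Terf2ip, the targeted gene, was read by 2 probes and was examined first as a check on the labels. Probe A_52_P381806 averaged -6.28 ± 0.43 in knockout liver and 0.14 ± 0.09 in wild-type liver (SD, n = 4 each), was not well above background on any knockout array, which places it at least 18.96-fold below wild type (adjusted p = 7.09e-06 in limma). The second probe, A_55_P2094079, averaged 0.29 ± 0.18 in knockout and -0.92 ± 0.22 in wild-type liver, and this difference did not pass over all probes (limma, adjusted p = 0.127). The 75th percentile itself was a raw signal of 220 to 227 on knockout arrays and 179 to 209 on wild-type arrays, and the share of probes well above background was lowest on knockout array 1 (50.03%) and highest on wild-type array 4 (65.3%). Each of 2 slides held 2 arrays of each genotype, with knockout arrays in positions 3 and 4 and wild-type arrays in positions 1 and 2, so position and genotype cannot be told apart.

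**Figure D1:**
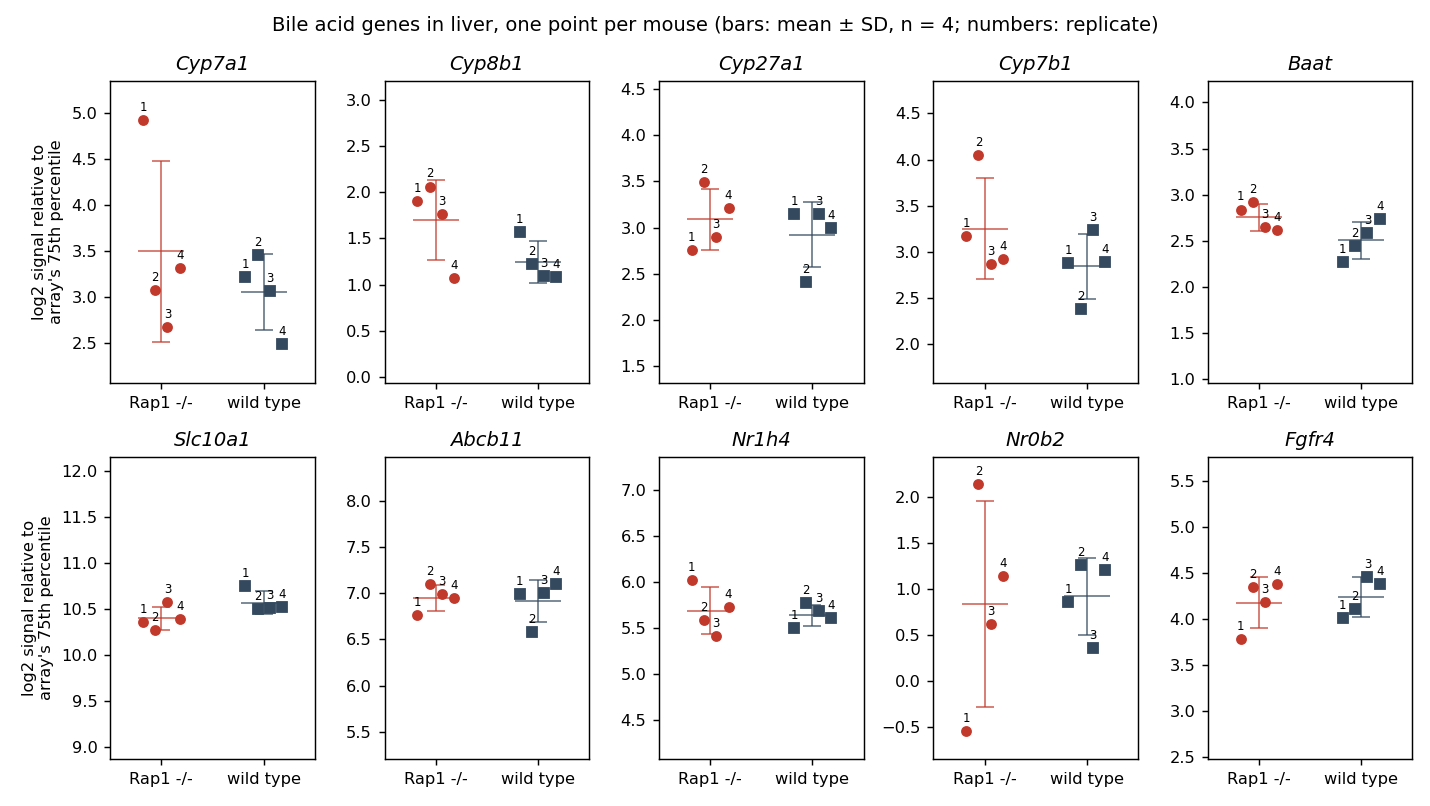
Level of each bile acid gene in each mouse, as log2 signal relative to the array's 75th percentile, with Rap1 -/- mice as red circles on the left and wild-type mice as dark squares on the right of each panel. Bars are the mean and SD of 4 mice, small numbers are replicates, and each panel spans the same number of log2 units. The 2 groups overlap in all 10 panels, and the points of Cyp7a1 and Nr0b2 are the most spread.

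Transcripts of bile acid synthesis were, by their means, all on the higher side in Rap1-deficient liver, 5 of 5 with a median log2 difference of 0.41, but none of the 5 differed beyond the spread between mice. Among all tested genes 56.1% were on the higher side, with a median of 0.02. Cyp7a1, the rate-limiting enzyme of the classic route, was at 4.93, 3.08, 2.68 and 3.32 in knockout replicates 1 to 4 and at 3.22, 3.46, 3.07 and 2.49 in wild-type replicates 1 to 4. A single knockout mouse, replicate 1, stood above all others, and the remaining 3 lay within the wild-type range. The means were 3.50 ± 0.99 in knockout and 3.06 ± 0.41 in wild-type liver (SD, n = 4 each). The log2 difference was 0.44 (SE 0.45, 95% interval -0.58 to 1.46, limma adjusted p = 0.884), and without knockout replicate 1 it was -0.04.

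Cyp8b1, the sterol hydroxylase that sets the proportion of cholic acid, had the lowest limma p of the members. By the exact permutation test the lowest p (0.114) was that of Baat and Slc10a1. Its level was 1.91, 2.06, 1.76 and 1.07 in the 4 knockout mice and 1.57, 1.23, 1.09 and 1.08 in the 4 wild-type mice. Replicates 1, 2 and 3 of the knockout were above every wild-type mouse, whereas replicate 4 was below every wild-type mouse. The log2 difference was 0.46 (SE 0.22, 95% interval -0.03 to 0.95), a ratio of 1.38 with an interval of 0.977 to 1.94, and did not pass after adjustment over all genes (limma, unadjusted p = 0.0639, adjusted p = 0.783, exact two-sided permutation p = 0.143). It was 0.59 on slide 1 and 0.33 on slide 2. Without single mice it ran from 0.34, without knockout replicate 2, to 0.67, without knockout replicate 4.

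The 250 bases before the start of Cyp8b1 are shown because the nuclear receptors that SHP represses, among them LRH-1, are known to act on bile acid promoters. The sequence is RefSeq's, chr9:121916306-121916555 of GRCm38.p6, minus strand, and capitals mark the only copy of AAGGCCA, a core of the extended sites that LRH-1 binds, at positions -27 to -21 from the start.
Cyp8b1: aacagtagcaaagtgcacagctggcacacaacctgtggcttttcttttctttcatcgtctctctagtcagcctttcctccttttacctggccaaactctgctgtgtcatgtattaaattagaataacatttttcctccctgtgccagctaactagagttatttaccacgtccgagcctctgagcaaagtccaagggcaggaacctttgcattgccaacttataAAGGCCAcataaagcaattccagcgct

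Over 32851 windows of this length before RefSeq gene starts, 5.25% hold AAGGCCA on either strand, 4.08% hold the related AAGGTCA and 9.09% hold one or the other. The search took the core alone and not the bases before it, and in Cyp8b1 the base before it is A. The match is a description of these letters, and binding was not measured.

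The alternative route was read through Cyp27a1, the mitochondrial sterol hydroxylase, and Cyp7b1, the oxysterol hydroxylase that follows it. Cyp27a1 was at 2.76, 3.50, 2.89 and 3.21 in knockout mice and at 3.14, 2.40, 3.15 and 2.99 in wild-type mice, with the lowest value in wild-type replicate 2 and the rest intermingled. Its log2 difference was 0.17 (SE 0.21, 95% interval -0.32 to 0.65, limma adjusted p = 0.911), and -0.01 without that wild-type mouse. Its probe is printed 10 times on the array, and the spots were averaged.

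Cyp7b1 was at 3.17, 4.05, 2.86 and 2.92 in knockout mice and at 2.88, 2.37, 3.23 and 2.89 in wild-type mice. Knockout replicate 2 was the highest and wild-type replicate 2 the lowest, and the other 6 mice lay within the span between them with no order by genotype. Between genotypes the log2 difference was 0.41 (SE 0.28, 95% interval -0.23 to 1.05, limma adjusted p = 0.840). Both of these mice were on slide 1, where the difference was 0.99, and on slide 2 it was -0.17. Without knockout replicate 2 it was 0.14 over all slides.

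Baat, the enzyme that joins bile acids to taurine, was at 2.84, 2.92, 2.64 and 2.61 in knockout mice and at 2.27, 2.44, 2.58 and 2.74 in wild-type mice. Knockout replicates 1 and 2 were above all wild-type mice, and knockout replicates 3 and 4 were below wild-type replicate 4. Its log2 difference was 0.25 (SE 0.13, 95% interval -0.04 to 0.54, limma adjusted p = 0.792, exact two-sided permutation p = 0.114), with 0.52 on slide 1 and -0.03 on slide 2.

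The transporters were among the members that varied least. Slc10a1, which takes bile acids up from blood with sodium, was read by 2 probes that differed in sign. On the brighter probe, A_55_P1954987, it was at 10.36, 10.27, 10.57 and 10.39 in knockout mice and at 10.75, 10.50, 10.51 and 10.52 in wild-type mice. Knockout replicates 1, 2 and 4 were below every wild-type mouse and replicate 3 was above 3 of them. On this probe the genotypes differed by -0.17 (SE 0.11, 95% interval -0.41 to 0.07, limma adjusted p = 0.8294, exact two-sided permutation p = 0.114). With quantile normalization in place of scaling to the 75th percentile its direction flipped, to 0.01. Before any scaling, the signal of this probe was 274307 to 335101 in knockout mice, a range that held all wild-type mice (279766 to 309079). The second probe, A_52_P69109, gave 0.07 (SE 0.12, limma adjusted p = 0.931 over probes).

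Abcb11, the canalicular bile salt export pump and a textbook FXR target, was at 6.76, 7.10, 7.0 and 6.95 in knockout mice and at 6.99, 6.58, 7.0 and 7.11 in wild-type mice. The groups overlapped almost fully, with the lowest and the highest value both in wild-type mice. The genotypes differed in log2 level by 0.03 (SE 0.14, limma adjusted p = 0.987), and its 95% interval, as a ratio, ran from 0.826 to 1.27. Its sign changed with the scaling, and it was -0.03 with normexp and quantile normalization, -0.08 without wild-type replicate 2 and -0.02 without knockout replicate 2. FXR with its partner RXR is known to bind inverted repeats of the core site AGGTCA spaced by a single base, and the promoter of Abcb11 is shown because it was the only member window to hold such a repeat when the fourth base of either arm was left free. The sequence is RefSeq's, chr2:69342617-69342866 of GRCm38.p6, minus strand, and capitals mark the repeat at positions -63 to -51.
Abcb11: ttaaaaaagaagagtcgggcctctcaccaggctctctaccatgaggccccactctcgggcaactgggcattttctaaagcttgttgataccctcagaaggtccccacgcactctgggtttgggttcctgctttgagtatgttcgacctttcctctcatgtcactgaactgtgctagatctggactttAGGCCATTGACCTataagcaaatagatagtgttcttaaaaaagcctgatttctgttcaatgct

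The search was for AGGNCA, any base, then TGNCCT, which reads the same on both strands, and 28 of 32851 windows (0.0852%) hold it. The right arm of the repeat in Abcb11 is a copy of AGGTCA on the opposite strand, at -56 to -51, a core site that 14.0% of all windows hold. The more permissive letters were chosen after the sequence had been read.

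In the control arm the receptor itself was steady. Nr1h4, which encodes FXR, was at 6.02, 5.58, 5.42 and 5.73 in knockout mice and at 5.50, 5.77, 5.68 and 5.60 in wild-type mice. The highest and the lowest mouse were both knockouts, replicates 1 and 3. The log2 difference was 0.05 (SE 0.14, 95% interval -0.27 to 0.37, limma adjusted p = 0.972), and it was -0.05 with normexp and quantile normalization and -0.06 without knockout replicate 1.

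Nr0b2, which encodes SHP, was the most variable member. Its level was -0.55, 2.13, 0.61 and 1.14 in knockout mice and 0.86, 1.26, 0.35 and 1.21 in wild-type mice. Knockout replicate 1 lay below and knockout replicate 2 above all other mice, so that the knockout values enclosed the wild-type values. The means were 0.83 ± 1.12 in knockout and 0.92 ± 0.42 in wild-type liver (SD, n = 4 each). Knockout minus wild type was -0.08 (SE 0.50, 95% interval -1.22 to 1.05, limma adjusted p = 0.991). It was 0.38 without knockout replicate 1 and -0.52 without knockout replicate 2, and leaving out wild-type replicate 2 or 4 gave 0.03 and 0.01, so the sign rested on single mice.

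Because Nr0b2 had the widest range of the members, its 250 bases before the start are shown as RefSeq gives them, chr4:133553126-133553375 of GRCm38.p6, plus strand. Capitals mark AAGGCCA at positions -200 to -194, the same core as in the window of Cyp8b1, and the only copy here. The base before the core is C in this window and A in that of Cyp8b1.
Nr0b2: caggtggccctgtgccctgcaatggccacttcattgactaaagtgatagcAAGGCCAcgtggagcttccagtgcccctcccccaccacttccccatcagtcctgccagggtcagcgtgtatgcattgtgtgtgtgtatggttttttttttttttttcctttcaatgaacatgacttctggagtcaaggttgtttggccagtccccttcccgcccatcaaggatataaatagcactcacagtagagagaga

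Of the 10 members, 7 had an entry in the promoter table, with 8 windows because Slc10a1 has 2 starts, and Cyp7a1, Cyp7b1 and Baat had none. AGGTCA also occurred in a window of Slc10a1 and in that of Nr1h4. The letters GGGTTA, the repeat of vertebrate telomeres read on either strand, occurred in the windows of Cyp27a1 and Nr1h4, as in 7.30% of all windows.

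Fgfr4, the hepatocyte receptor for the intestinal signal, was at 3.79, 4.36, 4.19 and 4.39 in knockout mice and at 4.01, 4.11, 4.46 and 4.38 in wild-type mice on its brighter probe. The groups overlapped, with knockout replicate 1 lowest. The log2 difference was -0.06 (SE 0.16, 95% interval -0.43 to 0.31, limma adjusted p = 0.970), and on the second probe, A_55_P2121871, it was -0.04 (SE 0.19, limma adjusted p = 0.984 over probes). Leaving out knockout replicate 1 turned the brighter probe to 0.07, and leaving out wild-type replicate 3 to 0.01.

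Over the 10 members, 7 log2 differences were above 0 and 3 below, with a median of 0.11. The median was 0.26 on slide 1 and -0.03 on slide 2. When arrays were scaled to their median probe instead of the 75th percentile, all genes moved up by a similar step, to a median of 0.18 over all genes and 0.27 over the members, and Nr0b2 and Fgfr4 then also stood above 0.

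**Figure D2:**
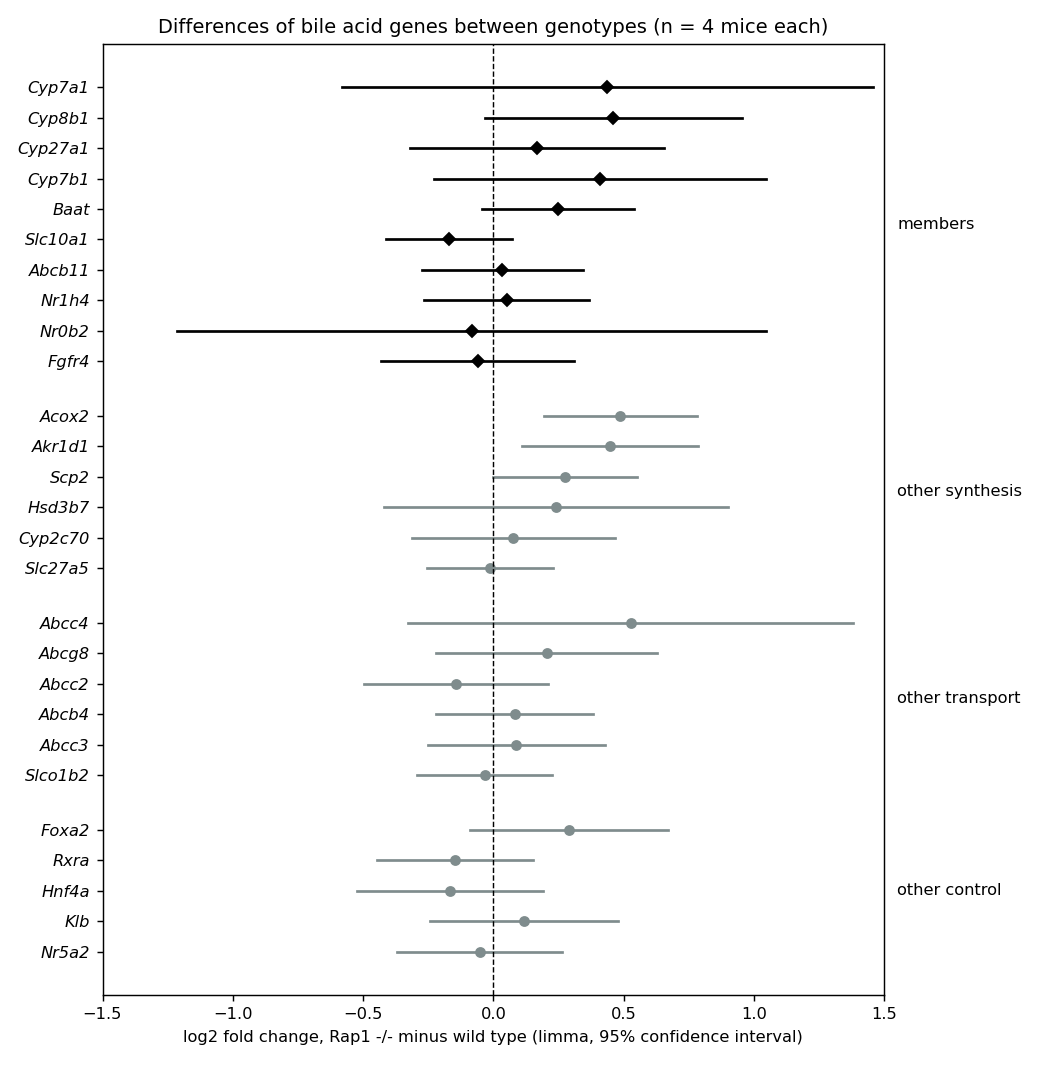
Log2 fold change (Rap1 -/- minus wild type, x axis) with its 95% confidence interval from limma, for the 10 members (black diamonds) and 17 other genes of bile acid synthesis, transport and control (grey circles), 4 mice per genotype. The intervals of all 10 members include 0, the widest being those of Cyp7a1 and Nr0b2, and only those of Acox2 and Akr1d1 lie wholly above 0.

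The members also differed in how far mice of a genotype lay apart. The residual SD of Nr0b2, 0.84 log2 units, was at the 98.2 percentile of all tested genes, that of Cyp7a1 (0.76) at 97.5 and that of Cyp7b1 (0.46) at 88.8. Cyp8b1 and Cyp27a1 stood at 78.5 and 77.7, Fgfr4 at 59.8, Nr1h4 at 45.9, Abcb11 at 43.2, Baat at 37.2 and Slc10a1 at 17.7. The SD of the median gene was 0.21, and 6 of the 10 members lay above it and 4 below.

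**Figure D3:**
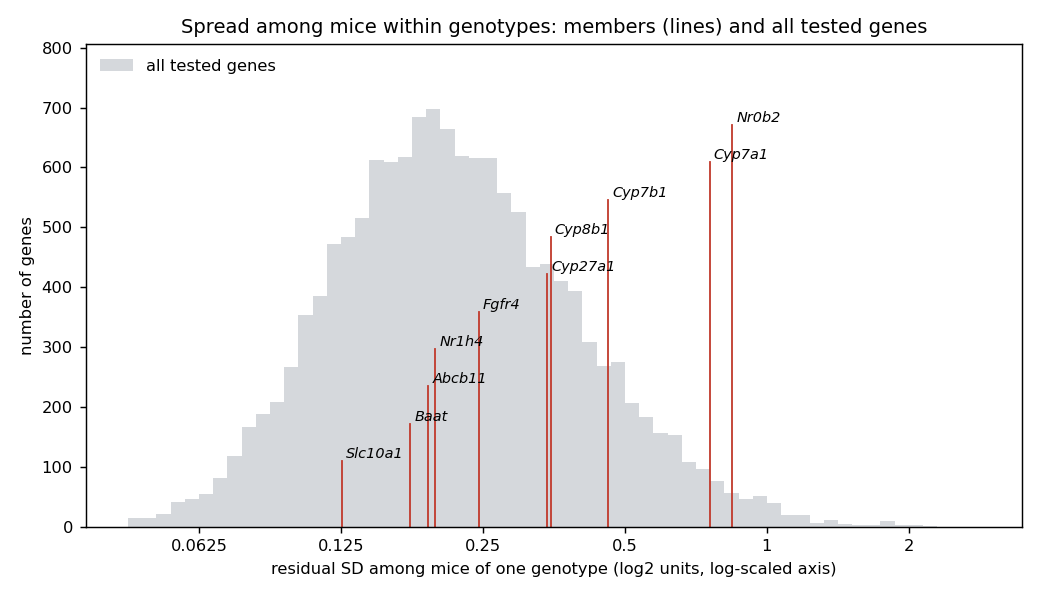
Residual SD among mice of a genotype in log2 units (x axis, log-scaled) for all 14066 tested genes, as a grey histogram of gene counts, with red lines at the 10 members. The height of a line only separates the names. Nr0b2 (0.84) and Cyp7a1 (0.76) lie in the right tail, and Slc10a1 (0.13) lies left of the peak.

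For Nr0b2 the highest knockout mouse was 6.41-fold above the lowest, against 1.87-fold among wild-type mice, and for Cyp7a1 the ranges were 4.74-fold among knockout mice and 1.96-fold among wild-type mice. Whether the spread differs between genotypes was not tested. The widest excursions were in a pair of knockout mice. Knockout replicate 1 had Cyp7a1 3.68-fold above and Nr0b2 3.09-fold below the mean of the other 7 mice, and it was also highest for Nr1h4 and lowest for Fgfr4. Knockout replicate 2 was highest for 5 of the 10 members, Cyp8b1, Cyp27a1, Cyp7b1, Baat and Nr0b2, with Nr0b2 2.71-fold and Cyp7b1 2.21-fold above the mean of the other 7, and lowest for Slc10a1. Among wild-type mice, replicate 2 was lowest for 3 members, Cyp27a1, Cyp7b1 and Abcb11.

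**Figure D4:**
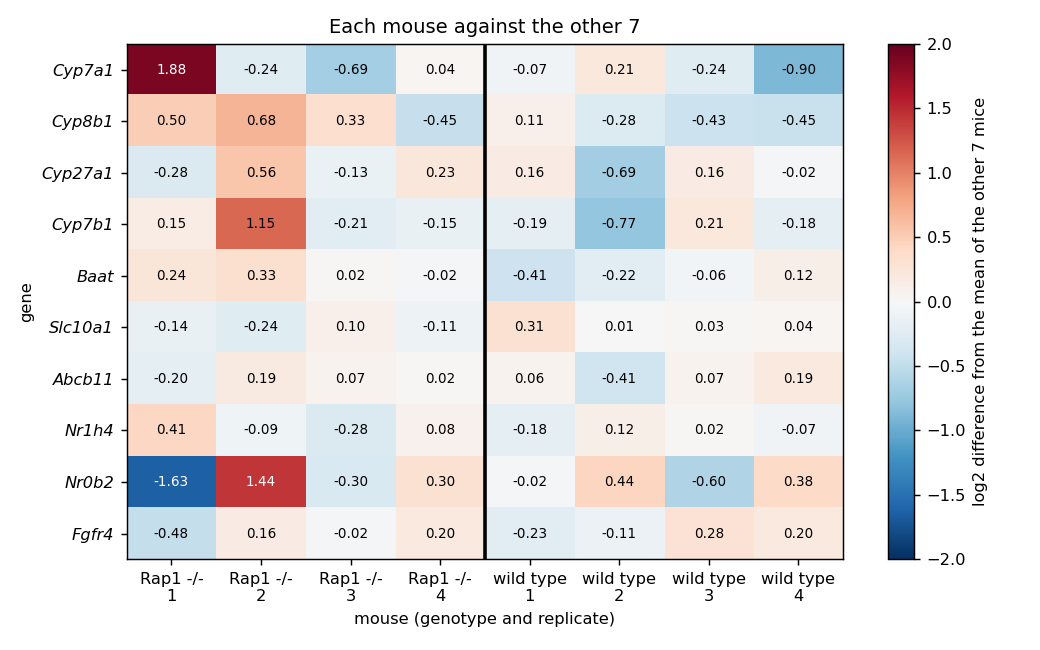
Log2 difference of each mouse (columns, 4 Rap1 -/- mice left of the black line and 4 wild-type mice right of it) from the mean of the other 7 mice, for each member (rows). Red is higher and blue lower. The strongest cells are in knockout replicates 1 and 2, at 1.88 for Cyp7a1 and -1.63 for Nr0b2 in replicate 1 and at 1.44 for Nr0b2 in replicate 2.

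Since SHP represses Cyp7a1 and FXR induces Nr0b2, 6 pairs of members were compared across the 8 livers, which share arrays, scaling and slides. Nr0b2 and Cyp7a1 had the strongest relation, with Pearson's r of -0.62 (exact permutation p = 0.121, 0.576 after adjustment over 6 pairs) but a Spearman's rho of -0.12 (exact permutation p = 0.793, adjusted 0.977). Without knockout replicates 1 and 2, the pair of arrays farthest from the median of Nr0b2, r was 0.18, and without knockout replicate 1 alone it was 0.14, so the relation rested on that mouse. Relative to the genotype means r was -0.64 and relative to the slide means -0.80, and both values include that mouse. The pair of Nr1h4 and Nr0b2 gave r of -0.50 (exact permutation p = 0.192, adjusted 0.576) and rho of -0.14 (p = 0.752 by the same test, adjusted 0.977). This r was -0.12 without knockout replicates 1 and 3, the arrays farthest from the median of Nr1h4, and 0.17 without knockout replicate 1 alone. The other 4 pairs had r between -0.04 and 0.35, with adjusted exact permutation p from 0.666 to 0.930 for r and of 0.977 for rho. None of the 6 relations passed after adjustment.

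The genes whose levels ran most like a member across the 8 arrays, out of 14061 compared, are given as a description. For Cyp7a1 they were Zfp931 (r = 0.946), 1810037I17Rik (0.934) and Sp7 (0.927), and without knockout replicate 1 these r values were 0.739, 0.912 and 0.636. For Cyp8b1 they were Tmem29 (0.978), Rnaseh1 (0.963) and Tlcd5 (0.961), and for Nr0b2 Kctd6 (0.979), Cd9 (0.969) and Wnt2 (0.961). With 8 points and this many genes, values above 0.9 were found for 14 genes with Cyp7a1, 29 with Cyp8b1 and 26 with Nr0b2.

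The rest of the pathway was read from 3 lists of 45 further genes, of which 42 were tested. None passed after adjustment (limma, 0 of 42, lowest adjusted p = 0.770). At an unadjusted p under 0.05 there were 2 of 42, against a background of 6.36% of genes. Both were on the higher side in knockout liver, where the background is 4.01%. In 1 of 42 the groups did not overlap, against 4.31% of all genes, so these counts lay near or below their backgrounds.

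Other genes of synthesis were tested in 13 of 14 cases, with 9 above 0, 4 below and a median log2 difference of 0.12. Acox2, the peroxisomal oxidase that shortens the side chain, was at 6.17, 6.40, 6.39 and 6.0 in knockout mice and at 5.89, 5.52, 5.81 and 5.80 in wild-type mice, the one gene of the 3 lists in which every knockout mouse was above every wild-type mouse. Its log2 difference was 0.49 (SE 0.13, limma unadjusted p = 0.00463, adjusted p = 0.770). Akr1d1, the reductase that gives bile acids their bent ring system, was at 1.99, 1.86, 1.78 and 2.01 in knockout mice and at 1.15, 1.43, 1.85 and 1.42 in wild-type mice, where only wild-type replicate 3 reached the knockout range. Its log2 difference was 0.45 (SE 0.15, limma unadjusted p = 0.0152, adjusted p = 0.770). Scp2, the peroxisomal thiolase of the last step, gave 0.27 (SE 0.12, limma adjusted p = 0.780). Hsd3b7, the dehydrogenase after the first hydroxylation, gave 0.24 (SE 0.29), Cyp2c70, which makes muricholic acids in mice, 0.08 (SE 0.17), and Slc27a5, the bile acid ligase that acts before BAAT, -0.01 (SE 0.11).

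Of the wider transporters 12 of 13 were tested, with 9 above 0, 3 below and a median of 0.10. The smallest p values belonged to Abcc4, an exporter towards blood (0.53, SE 0.38, limma adjusted p = 0.841), Abcg8, a subunit of the cholesterol exporter into bile (0.21, SE 0.19), and Abcc2, a canalicular exporter of conjugates (-0.14, SE 0.16). In Abcc4, 3 knockout mice stood at -0.08, 0.05 and 0.07 and knockout replicate 2 at -1.59, below all wild-type mice, which lay between -1.15 and -0.34. Abcb4, which moves phosphatidylcholine into bile, gave 0.08 (SE 0.13), Abcc3, another exporter towards blood, 0.09 (SE 0.15), and Slco1b2, an uptake carrier, -0.03 (SE 0.11).

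Among the wider regulators 17 of 18 were tested, with 7 above 0, 10 below and a median of -0.01. Foxa2, a forkhead factor of hepatocytes, gave 0.29 (SE 0.17, limma adjusted p = 0.811), and Rxra, the partner of FXR, -0.15 (SE 0.13). Klb, the co-receptor of FGFR4, gave 0.12 (SE 0.16), Nr5a2, which encodes LRH-1, -0.05 (SE 0.14), and Hnf4a, which drives both Cyp7a1 and Cyp8b1, -0.17 (SE 0.16). Ch25h, Slc51a and Vdr were not well above background on enough arrays to be tested.

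Markers of hepatocytes, the cells that carry these 10 genes, were measured by 7 of 8 listed genes, all well above background on all arrays. Their summed signal, in units of the array's 75th percentile, was 5596 to 5932 in knockout mice and 6034 to 6707 in wild-type mice, while 3 of the 7 genes were above 0 and 4 below in log2 difference. The separation of the sums rested on Alb, the albumin gene, at 10.79 in knockout and 10.998 in wild-type liver by its means. Alb was the 1 marker of the 7 whose groups did not overlap, against 4.31% of all genes. Among leukocyte markers the groups of Cd3e did not overlap either (1 of 8). Alb is the brightest of the hepatocyte markers. Without Alb the hepatocyte sums were 3822 to 4197 in knockout mice and 4097 to 4626 in wild-type mice, and overlapped. The divisor of these values, the array's 75th percentile, was 220 to 227 on knockout arrays and 179 to 209 on wild-type arrays. The part of this divisor in the lower hepatocyte sums and in Alb was not tested. In whole liver, fewer cells of a type and less RNA per cell cannot be told apart. Kupffer cell markers were lower by their means in 8 of 8 genes (median -0.15), with sums of 149 to 252 in knockout and 191 to 264 in wild-type mice. Leukocyte markers were lower by their means in 7 of 8 tested genes, with sums of 12.1 to 17.1 in knockout and 14.1 to 24.5 in wild-type mice. The sums of both lists overlapped between genotypes. The array's 75th percentile divides these values as well, and its part in them was not tested. With scaling to the median probe instead, the median log2 difference over all genes moved from 0.02 to 0.18. Cholangiocyte markers, from the cells that line bile ducts, were higher in 5 of 8 genes by their means (median 0.22), with sums of 4.67 to 9.0 in knockout and 3.99 to 5.52 in wild-type mice, overlapping. Sums of the endothelial and stellate lists overlapped as well. No gene of these lists passed after adjustment (limma), and at an unadjusted p under 0.05 there were Krt19 and Spp1 among cholangiocyte markers (2 of 8) and Col3a1 and Rgs5 among stellate markers (2 of 9) on the higher side, and Alb (1 of 7), Lyve1 among endothelial markers (1 of 8) and Cd3e among leukocyte markers (1 of 8) on the lower side, against 6.36% of all genes. Of 5 ileal markers 1 was tested, and Lct was well above background on no array.

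Adipocyte markers set 1 library apart. None of the 5 reached the number of arrays needed for a test, and Lep was well above background on no array. In knockout replicate 4, Adipoq, Cfd, Plin1 and Retn were well above background and the sum of the list was 4.20, against 0.117 to 0.143 in the other knockout mice and 0.135 to 0.387 in wild-type mice. Adipoq, Cfd and Retn were each well above background on 1 further array, and the sum of 0.387 was that of wild-type replicate 4. Knockout replicate 4 also had the lowest Cyp8b1, and without it the log2 difference of Cyp8b1 was 0.67, with 0 of the 10 members passing (limma). That was the highest of the values without single mice, which began at 0.34. The part of cell makeup in the values of the members was not tested.

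Bile acid synthesis is known to follow the clock, feeding and sex, so genes of each were read beside the members. Clock genes varied widely within both genotypes, with a median residual SD of 0.94 over 9 tested genes. Dbp, a clock output, was at 7.10, 4.49, 6.14 and 6.90 in knockout mice and at 6.25, 6.84, 7.28 and 5.94 in wild-type mice, and Arntl, which peaks in antiphase, was at -3.60, 0.07, -0.82 and -3.11 in knockout mice and at -1.48, -3.02, -3.77 and -1.37 in wild-type mice. Knockout replicate 2 had the lowest Dbp and the highest Arntl of the 8 mice, and the groups overlapped in both.

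Genes of fasting and feeding had a median residual SD of 0.84 over 9 tested genes. G6pc, of glucose release, was at 5.66, 7.14, 4.77 and 6.11 in knockout mice and at 5.94, 6.78, 5.39 and 7.14 in wild-type mice, with knockout replicate 3 lowest. Among genes known to be higher in male mouse liver, which Cyp7b1 also is, the summed signal was 776 in knockout replicate 2 and 384 to 558 in the other knockout mice, against 397 to 581 in wild-type mice. Genes known to be higher in female liver summed to 505 in knockout replicate 2 and 811 to 1253 in the other knockout mice, against 630 to 1199 in wild-type mice. All 7 measured genes of this female-biased list were well above background on all 8 arrays. Among them, Xist was at 1.97, 1.21, 1.72 and 1.32 in knockout mice and at 1.58, 1.59, 1.37 and 0.84 in wild-type mice. The sums follow mostly the brightest gene of each list, Mup20 (mean 9.02 in knockout liver) and Cyp2a4 (9.44). The mouse with the highest Cyp7b1 had the highest male-biased and the lowest female-biased sum. Wild-type replicate 2, with the lowest Cyp7b1, had the lowest male-biased sum of its genotype. The lowest male-biased sum of all mice was that of knockout replicate 3, where Cyp7b1 was at 2.86. The part of time of day, feeding or sexual state in the members' values was not tested.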

How the data were processed

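The deposited spot values are fluorescence intensity from Agilent Feature Extraction 10.7.3.1 per the file headers, already background-subtracted by the authors' software with no normalization across arrays. A second deposited file holds log2 values made by the authors, which differed from normexp correction (offset 50) with quantile normalization of the scanner values by a median of 0.00154, with 99.5% of values within 0.05. Normexp here used the median signal. Column medians of that table were 6.39 to 6.40, and its values are not centred.

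Outlier spots were left out, repeated spots averaged as log2, and each array's 75th percentile subtracted. Probes well above background on at least 4 of 8 arrays were tested, each gene by its brightest tested probe, with limma 3.58.1 (lmFit, eBayes) in R 4.3.3 without covariates. Adjusted p values are Benjamini-Hochberg, passed under 0.05, and permutation tests covered all 70 groupings. Probes were named through RefSeq accessions of GRCm38.p6, used for names and promoters only, since the array was annotated on mm9.

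The members and gene lists were chosen with earlier results of these data known. Named genes are the members, Terf2ip, the 3 smallest p values and preset genes of each wider list, and the 3 genes most like each of Cyp7a1, Cyp8b1 and Nr0b2. The values of 1 gene that this rule names are not reported here. The cell markers and the genes of the clock, feeding and sex lists named here were picked after their values were seen. Alternatives covered background correction, normalization, filters, probe choice, variance model, slide, replicate block and leaving out each mouse. Replicates are separate mice per the labels. The limma fit was run on simulated arrays with independent noise for each gene, as a check that mean log2 changes were recovered. Those arrays held no shared effect of slide, position or scaling, so the check says nothing on such effects. The labels give RNA integrity only as a range over all samples, and the number of arrays limits precision.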

Additional observations from a re-analysis of the deposited data

Results flagged for a closer look

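In 1 of 20 groups examined (10 members in 2 genotypes), a mouse stood apart from the other 3 of its group. Slc10a1, on its brighter probe, was at 10.75 in wild-type replicate 1, and its gap to the nearest mouse was 0.898 of the range of the wild-type group. Before scaling, the signal of that mouse was 309079, against 279766, 300423 and 307790 in the other wild-type mice. Without that mouse the log2 difference between knockout and wild type was -0.11. Chance flags about 1 in 20 groups.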

How the results depend on the processing

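For the 10 members 23 alternatives gave 230 values, of which 0 passed the adjusted threshold (limma, lowest adjusted p = 0.654), 201 kept the direction and 29 turned it. For 18 other pathway genes 0 of 414 values passed and 25 turned. The counts of members, member probes and wider genes that passed were 0 throughout. The count of all genes that passed was 2, and 3 with the mean over probes or a trended and robust variance, 1 without any single mouse, 1 with quantile normalization, no filter, a filter on all 8 arrays, slide as a block or slide 2 alone, and 0 with normexp and quantile normalization, the authors' table or slide 1 alone. With the replicate block it was 0. Residuals of mice with equal replicate numbers correlated at -0.18 to 0.10, and 0 of 4 knockout mice correlated best with the wild-type mouse of their number. Such correlations cannot exclude a pairing that leaves little mark on expression. The members' median (0.11) was 0.27 with median scaling, 0.041 with the authors' table, 0.048 with normexp and quantile normalization, 0.056 with cyclic loess, 0.067 with quantile normalization, 0.26 on slide 1, -0.031 on slide 2 and 0.059 to 0.19 without single mice. The cause of these changes was not tested.

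Turned values of log2 fold change were as follows. With normexp and quantile normalization, Abcb11 was -0.033, Nr1h4 -0.048 and Abcc3 -0.0029. With the authors' table, Abcb11 was -0.033, Nr1h4 -0.049 and Abcc3 -0.0012. With quantile normalization alone, Abcb11 was -0.025, Nr1h4 -0.025 and Slc10a1 0.011, and with cyclic loess Abcb11 was -0.027 and Nr1h4 -0.0072. With the percentile over probes well above background, Abcb11 was -0.0019. With median scaling, Nr0b2 was 0.075, Fgfr4 0.098, Nr5a2 0.11, Slc27a5 0.15, Abcc2 0.014, Slco1b2 0.13 and Rxra 0.0096. With the mean over probes, Nr5a2 was 0.056 and Slc27a5 0.028. On slide 1, Fgfr4 was 0.011, Abcc4 -0.087, Slco1b2 0.025, Foxa2 -0.026, Slc27a5 0.0065 and Hnf4a 0.040. On slide 2, Cyp27a1 was -0.020, Cyp7b1 -0.17, Baat -0.029, Abcb11 -0.077, Nr1h4 -0.068, Nr0b2 0.098, Cyp2c70 -0.071, Abcb4 -0.17 and Nr5a2 0.077.

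Without single mice the log2 fold change ranged from -0.038 to 0.71 for Cyp7a1, -0.0057 to 0.28 for Cyp27a1, -0.079 to 0.097 for Abcb11, -0.060 to 0.14 for Nr1h4, -0.52 to 0.38 for Nr0b2, -0.14 to 0.069 for Fgfr4, -0.040 to 0.20 for Cyp2c70, -0.044 to 0.048 for Slc27a5, -0.10 to 0.022 for Slco1b2 and -0.11 to 0.078 for Nr5a2. The sign turned without knockout replicate 1 for Cyp7a1, Nr1h4, Nr0b2 and Fgfr4, without knockout replicate 2 for Abcb11, Cyp2c70, Slc27a5, Slco1b2 and Nr5a2, without knockout replicate 3 for Slco1b2, without wild-type replicate 2 for Cyp27a1, Abcb11, Nr0b2 and Cyp2c70, without wild-type replicate 3 for Fgfr4 and Slc27a5, and without wild-type replicate 4 for Nr0b2 and Slco1b2. Correlations turned without the 2 arrays farthest from the median of the first gene, to -0.53 for Cyp7a1 with Cyp8b1, 0.18 for Nr0b2 with Cyp7a1, -0.38 for Nr0b2 with Abcb11 and -0.33 for Cyp7a1 with Cyp7b1, and that of Cyp7a1 with Cyp7b1 was -0.13 relative to genotype means and -0.070 relative to slide means. Leaving out each mouse in turn, an alternative added after seeing the data, gave r from -0.091 to 0.52 for Cyp7a1 with Cyp8b1, -0.73 to 0.14 for Nr0b2 with Cyp7a1, -0.69 to 0.46 for Nr0b2 with Cyp8b1, -0.69 to 0.17 for Nr1h4 with Nr0b2, 0.075 to 0.85 for Nr0b2 with Abcb11 and -0.14 to 0.24 for Cyp7a1 with Cyp7b1. Knockout replicate 1 gave the value farthest from the sign over 8 mice in the 5 pairs that turned, and r of Nr0b2 with Abcb11 was 0.85 without wild-type replicate 2 and 0.075 without knockout replicate 1. With 4 mice a group the intervals of Cyp7a1, Cyp7b1 and Nr0b2 hold differences of over 1 log2 unit.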
